A study of Gallus gallus with 16 samples.

Results

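The cytosolic ribosome is built from a small and a large subunit, and its proteins are encoded by a family of genes named RPS for the small subunit and RPL for the large subunit. The family was taken from the deposited count table by gene symbol. Of the 81 symbols that matched the naming pattern, 9 RPS6K kinases, 3 genes with L1 names (RPL22L1, RPL26L1 and RPL7L1) and RPS19BP1, which encodes a binding protein, were left out. This left 68 of 23910 genes, 27 of the small subunit and 41 of the large subunit. They lie on 28 chromosomes of the GRCg6a build, 4 of them on the Z chromosome (RPL17, RPL37, RPS23 and RPS6). RPL10, RPL41 and RPS19 were not analysed here, and 10393 genes of the table carry no symbol.

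Ribosomal proteins bind the ribosomal RNA in the nucleolus and are needed in equal numbers, since each ribosome carries 1 copy of nearly all of them. In vertebrates their mRNAs begin with a pyrimidine tract (the TOP motif) through which mTORC1 controls their translation. Metformin, a biguanide used against diabetes, inhibits respiratory complex I, and the resulting activation of AMPK restrains mTORC1. Translation itself was not measured here, and the values below are mRNA levels.

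COVCAR cells are primary ovarian cancer cells grown from the ascites of laying hens (Leghorn) that developed the disease spontaneously. Each of the 4 lines, C5, C7, C9 and C11, came from 1 hen, and the labels place them at passage 3 except C11 at passage 2. All were held for 24 h in serum-free medium with insulin and epidermal growth factor in low-attachment wells, and received no metformin (control) or metformin at 0.5, 1 or 2 mM, which gave 16 libraries and 4 lines per group. The control cells therefore shared the insulin, which acts upstream of mTORC1. The age of each hen was not given for single lines. In comparisons of a dose with control without a term for the line, p-values measure the spread between 4 hens. The dose slope without that term treats 16 libraries from 4 hens as independent. With a term for the line, p-values measure the spread left within lines.

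The libraries held 34724071 to 42531887 counts, with 14888 to 16903 genes detected. The labels call the cells endometrioid adenocarcinoma, but EPCAM, an epithelial adhesion gene, lay between 0 and 0.640 CPM (a library's counts scaled to a common total) and CDH1 between 0.451 and 7.09 CPM. KRT7 was present at 203 to 864 CPM. The fibroblast and mesenchymal genes COL1A1 (1867 to 29446 CPM) and VIM (4254 to 8572 CPM) were abundant. The summed fibroblast list ranged over 14105 to 37469 CPM at 2 mM and 25224 to 75236 CPM in the control group. The part of these cells in the results below was not tested. In such bulk samples, fewer cells of a type and less RNA per cell cannot be told apart.

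The libraries also differed in how log2 CPM depended on exonic length among genes outside the family, here called the length slope (log2 CPM per doubling of length). Each gene's mean over the 16 libraries was subtracted before the fit. A slope of 0 thus stands for the average library, and slopes fall on both sides of 0 by construction. The slope was above 0 in 7 libraries, which favoured long genes relative to that average. These were all 4 of C9, C7 and C11 at 0.5 mM, and C5 at 2 mM. In the other 9 the slope lay between -0.29 and -0.08. This bears on the family because its genes are short, with a median exonic length of 984.5 bases against 2495 bases for the 10565 genes that set the slope. Whether the slope reflects the cells or the preparation of the RNA was not tested.

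By the mean over the 16 libraries, most ribosomal protein mRNAs were among the most abundant. Of the 68 genes, 65 ranked within the top 500 of all genes by mean CPM and 13 within the top 100. The median gene averaged 688 CPM.

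Levels of different genes are compared per kilobase of exonic length. On that scale the median gene averaged 861 CPM per kb, and 53 of the 68 lay within 2-fold of it. RPS2, which lines the channel where mRNA enters the small subunit, was the highest (2097 CPM per kb) and was followed by RPLP1 (2015), an acidic stalk protein, RPL23 (1707), RPS20 (1638) and RPS10 (1616). The lowest was RPL3L, the paralog of RPL3 that in mammals is restricted to striated muscle, at 0.247 CPM per kb and 2 to 48 counts per library. RPS27L, the paralog of RPS27, stood at 9.72 CPM per kb. RPL3 itself stood at 799.5 CPM per kb. RPS27 stood at 1202 CPM per kb, 124 times the level of RPS27L on that scale and 23.5 times by CPM, with exonic lengths of 435 bases for RPS27 and 2291 bases for RPS27L. RPS21 (107), RPS24 (165) and RPL37A (183 CPM per kb) came next from below. The length used for them is the union of all annotated exons, 4875 bases for RPS24 and 3480 bases for RPL37A, so that exons not used in these cells would lower the value per kb.

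**Figure D1:**
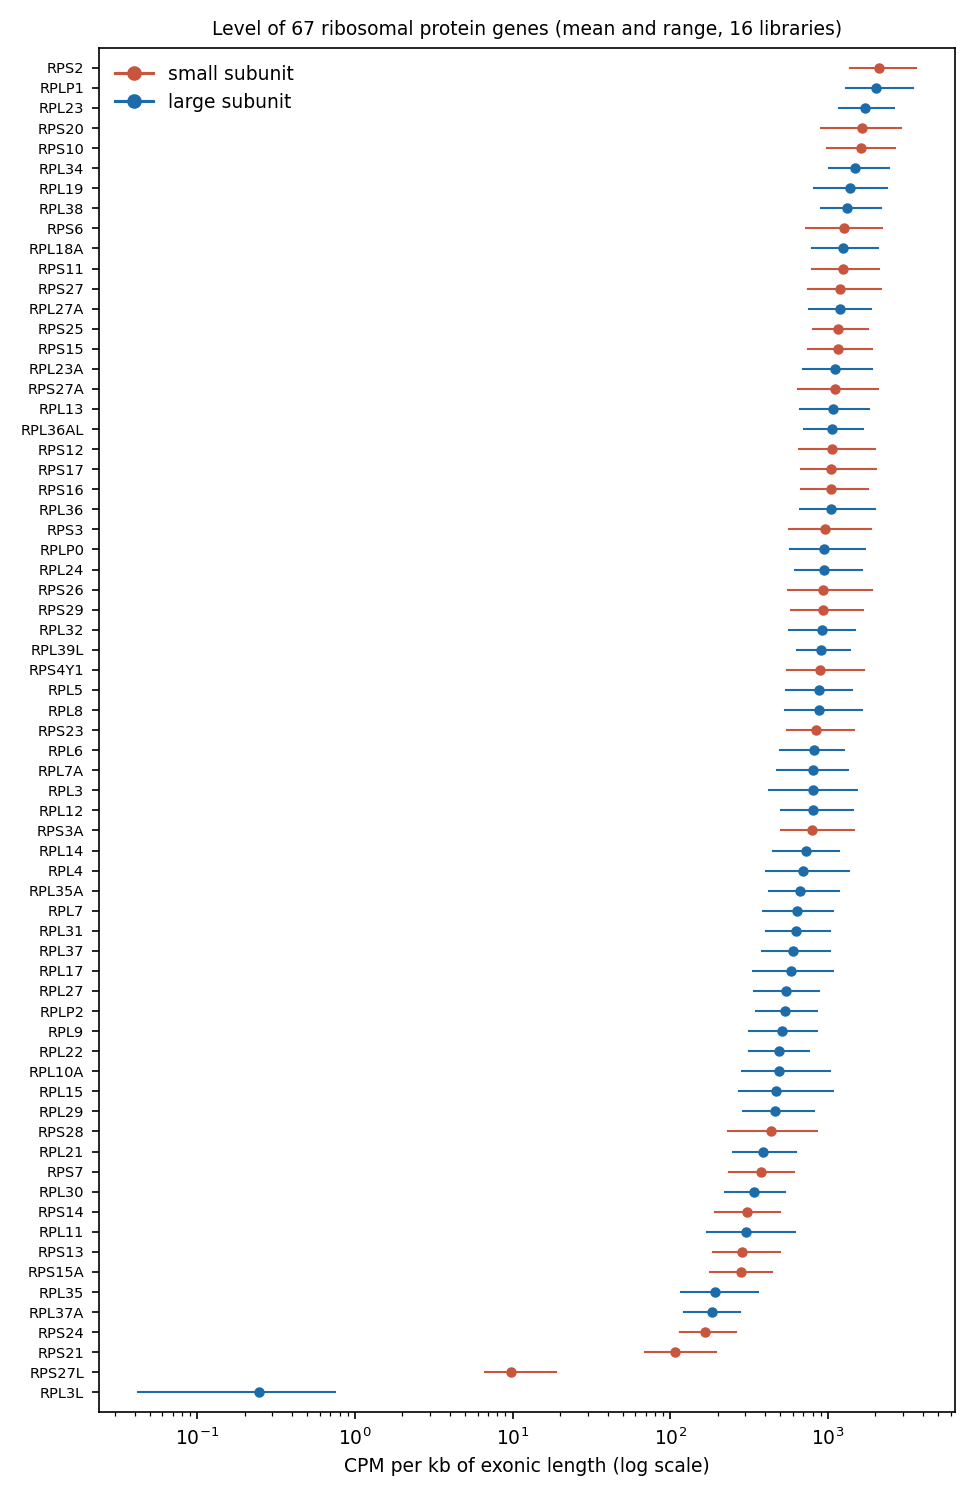
Mean level (point) and range (line) over 16 libraries of 67 of the 68 ribosomal protein genes, in CPM per kb of exonic length on a log scale, coloured by subunit. RPS2 stood highest at 2097 CPM per kb, and RPL3L and RPS27L stood apart at the bottom at 0.247 and 9.72 CPM per kb.

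Per kb, the median small-subunit gene was 1.07 to 1.55 times the median large-subunit gene in the 16 libraries. The ratio was 1.42 to 1.55 in C7 and lower in every library of C5, with 1.09 in its control library. C9 reached 1.42 at 2 mM and C11 reached 1.48 at 1 mM, while at 0.5 mM they had 1.19 and 1.07. By CPM, without the scaling for length, the ratio was 1.10 to 1.23 in the 16 libraries. The family as a whole held between 3.72% and 7.66% of all counts. By dose, the share averaged 5.34% ± 1.63 in the control group and, with metformin, 4.82% ± 1.05 at 0.5 mM, 5.57% ± 1.31 at 1 mM and 5.19% ± 1.66 in the 2 mM group (SD, n = 4). The differences from control, -0.51, 0.24 and -0.14 percentage points, were all smaller than the SD of each group. That SD reflects levels that differ between lines and is not the spread of the change within lines.

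Within lines C5 and C7 the share differed more between libraries than the dose means did. In order of rising dose from control, it was 5.57%, 6.21%, 6.68% and 4.05% in C5, and 7.56%, 3.72%, 6.69% and 7.66% in C7. In C9 it was 4.12%, 4.40%, 4.17% and 4.43%, and in C11 it was 4.10%, 4.95%, 4.75% and 4.63%. The low values of C5 at 2 mM and C7 at 0.5 mM belong to libraries with a length slope above 0. The highest value of C11, at 0.5 mM, also belongs to a library with a slope above 0. The 7 libraries with a slope above 0 had shares of 3.72% to 4.95% (median 4.17%), and the 9 below 0 had 4.10% to 7.66% (median 6.21%). Those 7 include every library of C9, so this contrast is in part a contrast between lines.

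**Figure D2:**
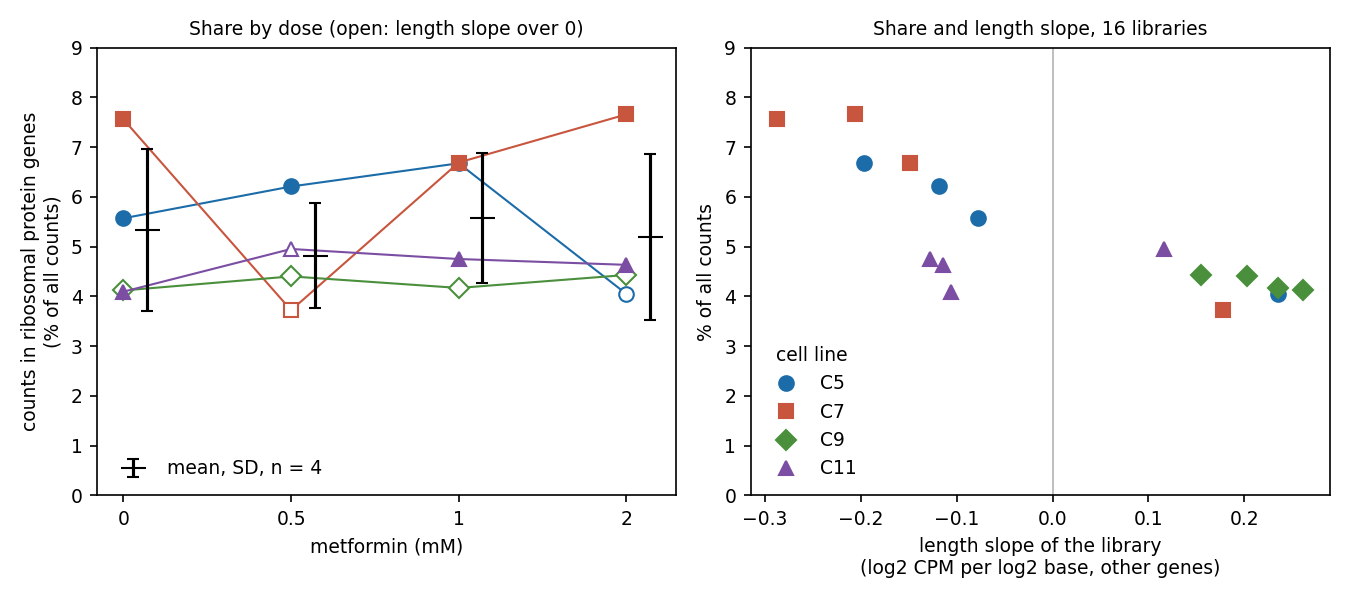
Share of all counts in the 68 ribosomal protein genes, in percent, against metformin dose with the libraries of a line joined (left; open symbols have a length slope above 0; black marks are mean and SD of 4 lines) and against the length slope of each library (right). The dose means of 5.34%, 4.82%, 5.57% and 5.19% overlap in SD, while 3.72% in C7 at 0.5 mM and 4.05% in C5 at 2 mM stand below the other libraries of their lines.

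To compare the doses with the control group, each gene was tested over all genes with edgeR, without a term for the cell line. No ribosomal protein gene was a differentially expressed gene (DEG, p under 0.01 and adjusted p under 0.05) at 0.5, 1 or 2 mM, and none had an unadjusted p under 0.05. DESeq2 called 0 of the family too. Among all genes tested, edgeR called 0% at each dose, and DESeq2 called 0%, 0.159% and 1.92% at 0.5, 1 and 2 mM. Of all genes tested, 1.1% at 0.5 mM, 4.77% at 1 mM and 10.6% at 2 mM had an unadjusted p under 0.05. With a term for the cell line (replicate block), 2 members had an unadjusted edgeR p under 0.05 at 2 mM, where 23.3% of all genes did. With the length slope as a further term, 2 members did at 1 mM and 3 at 2 mM, where 31.4% and 29.2% of all genes did.

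At 0.5 mM, 67 of the 68 genes had a fold change below 0, with a median log2 fold change of -0.25, where 49.8% of all genes tested did. That direction was set by line C7. Without C7, 1 gene was below 0 and the median was 0.17. At 1 mM, 38 of 68 genes were below 0 (median -0.01), against 50.3% of all genes. Without C7, 2 were. At 2 mM, 50 of 67 tested were below 0 (median -0.10), against 49.4% of all genes. Without the control library of C7, 8 were, and without that of C9, 67 were.

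The lines moved as blocks and in different directions. For the 67 genes other than RPL3L, the median log2 change at 0.5 mM from the control of the same line was 0.22 for line C5, -1.40 for C7, 0.11 for C9 and 0.18 for C11. All 67 were higher in C5 and all 67 were lower in C7. At 1 mM the medians were 0.40 for line C5, -0.49 for C7, 0.03 for C9 and 0.21 for C11, again with 67 higher in C5 and 67 lower in C7. At 2 mM they were -0.58 for line C5, -0.05 for C7, 0.11 for C9 and 0.22 for C11. All 67 were then lower in C5, and 62 were higher in C11. Among the 10565 other genes, 48.0% to 54.5% were higher in each of these comparisons.

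For each of these comparisons a line was also fitted through the change of the other genes against exonic length, and read at the lengths of the family. In C7 the line changed by -0.33 at 0.5 mM and the median member lay 1.08 below it. At 1 mM it changed by -0.10, with the median member 0.35 below. In C5 it changed by 0.14 at 1 mM, with the median member 0.24 above, and by -0.22 at 2 mM, with the median member 0.36 below. In each of these 4 comparisons the line and the family changed in the same direction. In C11 at 0.5 mM the line changed by -0.22 and the median member lay 0.37 above it.

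**Figure D3:**
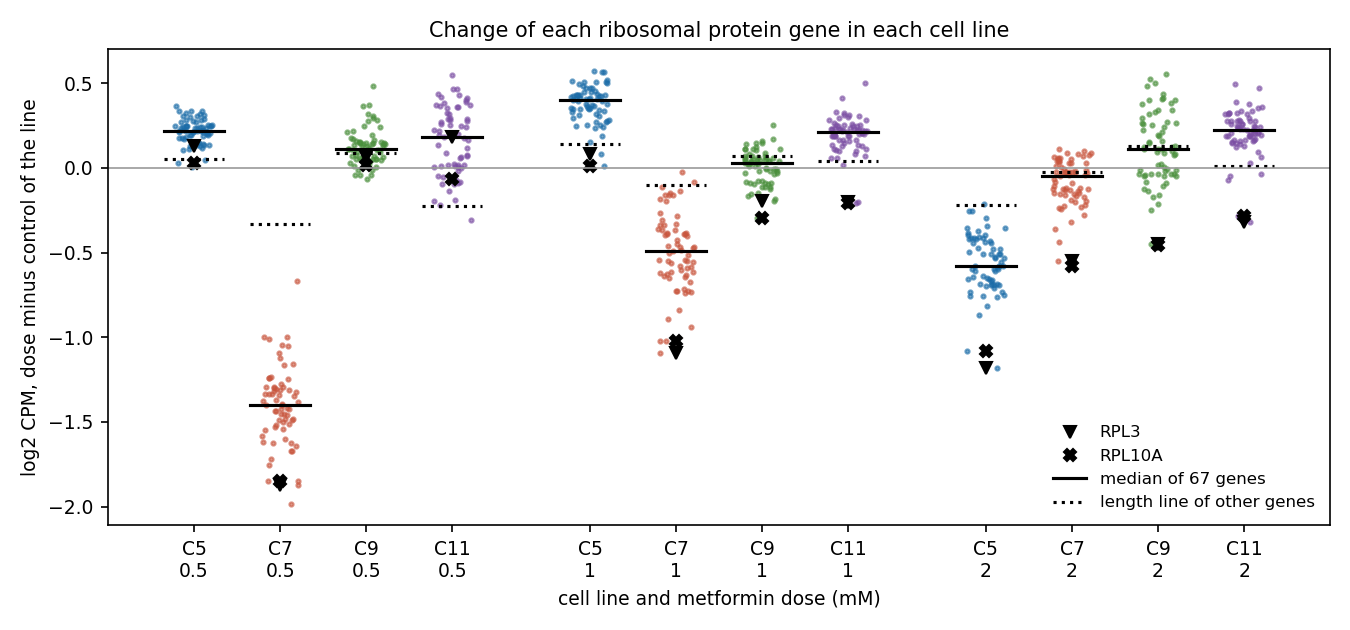
Change in log2 CPM of each of 67 ribosomal protein genes from the control library of the same line, for each line at each dose. Solid bars are medians, dotted bars the change that the length dependence of other genes gives at the family's lengths. The genes of a comparison move together, at -1.40 in C7 at 0.5 mM and at 0.22 in C11 at 2 mM, and RPL3 and RPL10A lie at the lower edge in all lines at 1 and 2 mM.

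Over all 16 libraries, the slope of log2 expression per mM was also tested. No member of the family was called, where 0.432% of all 14108 genes were (3.59% by DESeq2, and 0 of the family), and none had an unadjusted p under 0.05, where 14.8% of all genes did. Slopes were below 0 for 38 of 68 genes (median -0.01), against 49.5% of all genes. After RPS12, the smallest p among the rising slopes were those of RPL27 (0.11 ± 0.16 SE per mM) and RPS20 (0.11 ± 0.17). With the cell line as a replicate block and the length slope as a covariate, 1 member was called, RPS12, a protein of the beak of the small subunit (slope 0.20 ± 0.06 SE per mM, edgeR adjusted p = 0.0480). That fit called 16.2% of all genes. In it 6 members had an unadjusted p under 0.05, where 31.9% of all genes did.

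RPS12 (chr3:56858322-56862421, minus strand, GRCg6a) shares 85 exonic bases with an unnamed gene of the same strand that held few counts. In order of rising dose from control, RPS12 mRNA was 944, 1147, 1339 and 791 CPM in C5 and 1953, 682, 1808 and 2071 CPM in C7. It was 699.7, 723, 723 and 977 CPM in C9, and 773, 729, 1096 and 1088 CPM in C11. The groups overlapped at every dose. Without the block and the length slope, its slope was 0.16 ± 0.18 SE per mM (edgeR adjusted p = 0.773).

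**Figure D4:**
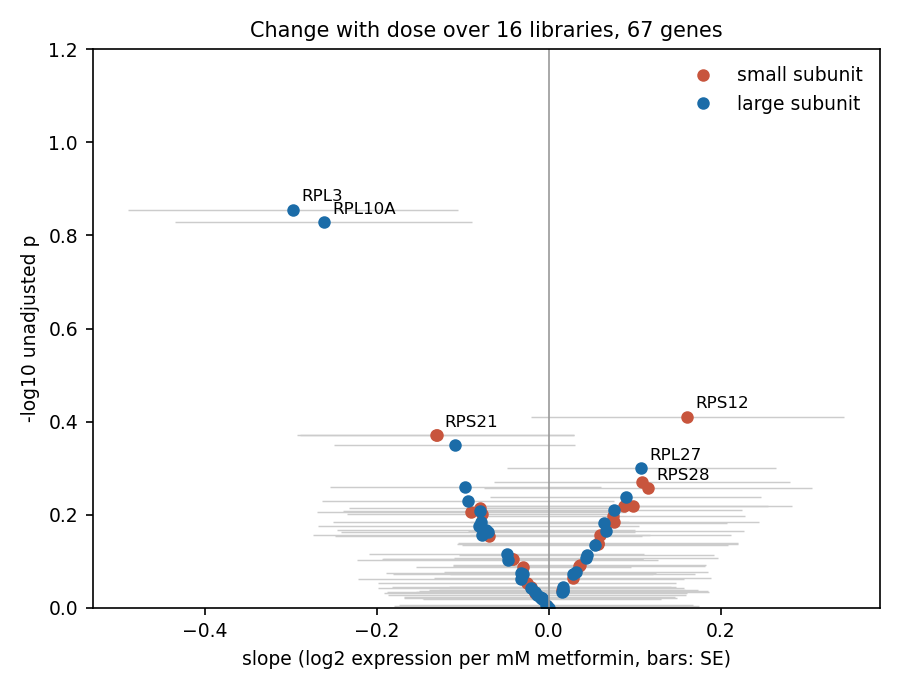
Slope of log2 expression per mM metformin (x, bars are SE) and -log10 of the unadjusted edgeR p (y) over 16 libraries for 67 ribosomal protein genes, without a replicate block. RPL3 and RPL10A lie furthest to the left, at -0.30 and -0.26 per mM, and neither passed the test.

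Because the family moved as a block within each library, each gene was next set against the median ribosomal protein gene of its own library. This relative level varied far less. Its SD over the 16 libraries was 0.12 for the median gene, against 0.47 for log2 CPM itself, and 60 of 68 genes had an SD under 0.2. The steadiest was RPL34 (SD 0.06), with RPS14 and RPL24 next. RPS28, which sits by the mRNA exit channel, varied most after RPL3L (SD 0.32), with line means of -0.70 for C5, -0.03 for C7, -0.60 for C9 and -0.34 for C11. Its libraries spanned -0.82 to -0.61 in C5, -0.19 to 0.07 in C7, -0.82 to -0.42 in C9 and -0.78 to -0.15 in C11. C7 thus lay above C5 and C9, and the range of C11 overlapped those of the other lines. The overlap of C11 with C5 and C9 came from its 0.5 mM library alone. C11 lay at -0.23, -0.15 and -0.19 at control, 1 and 2 mM.

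RPL10A, which forms the mobile L1 stalk beside the exit site for tRNA, had a lower mean level relative to the rest of the family at each higher dose. It lies at chr26:4130378-4134782 on the plus strand. Its mRNA stood at 456, 986, 420 and 499 CPM in C5, C7, C9 and C11 at 2 mM, against 965, 1475, 576 and 608 CPM in the same lines of the control group. It was lower in all 4 lines at 2 mM, and was 1 of 3 such members of the 67 tested, with RPL3 and RPL12 (16.9% of all genes). The RPL10A groups overlapped. On log2 CPM itself no member lay wholly above or below the control group at 2 mM, where 3.78% of all genes lay wholly above and 3.33% wholly below.

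Relative to the median ribosomal protein gene, RPL10A was 0.32 ± 0.09 in the control group and, with metformin, 0.04 ± 0.13 at 0.5 mM, -0.11 ± 0.06 at 1 mM and -0.23 ± 0.11 in the 2 mM group (log2, SD, n = 4). Each dose group lay wholly below the control group. Of all genes scaled in this way, 0.15% at 0.5 mM, 1.32% at 1 mM and 3.47% at 2 mM lay wholly below it. The scaling takes out the variation that members share and adds it to the other genes, so these shares are no like-for-like background for the members.

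RPL3, which reaches to the peptidyl transferase centre, also had a lower mean relative level at each higher dose. It lies at chr1:50691560-50697388 on the plus strand and shares 684 exonic bases with an unnamed gene on the opposite strand. Its mRNA stood at 803, 1569, 714 and 723 CPM in C5, C7, C9 and C11 at 2 mM, against 1819, 2296, 974 and 901 CPM in the control group. Its relative level was 1.04 ± 0.16 in the control group and, with metformin, 0.85 ± 0.27 at 0.5 mM, 0.64 ± 0.27 at 1 mM and 0.47 ± 0.17 in the 2 mM group (log2, SD, n = 4). The 2 mM and control groups did not overlap, and the groups at 0.5 and 1 mM did overlap with control.

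In all 4 lines at 1 mM and in all 4 at 2 mM, RPL3 and RPL10A were the lowest 2 of the 67 genes by their change from the control of the line. At 0.5 mM they were the lowest 2 in 0 of the 4 lines. The comparisons at 1 and 2 mM share the control libraries. The genes were singled out after their values were seen. By edgeR the log2 fold changes at 2 mM were -0.67 ± 0.40 SE for RPL3 (adjusted p = 0.622) and -0.63 ± 0.40 SE for RPL10A (adjusted p = 0.647). With each library scaled to its median member, they were -0.57 ± 0.19 and -0.55 ± 0.18 SE (adjusted p = 0.691 for both). With that scaling and the replicate block, the slopes per mM were -0.29 ± 0.06 for RPL3 (adjusted p = 0.0514) and -0.26 ± 0.06 for RPL10A (adjusted p = 0.0589), and neither was called.

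In relative level, 6 of the 67 genes tested at 2 mM lay wholly below the control group and 0 lay wholly above it (3.47% and 1.15% of all genes, with the limit given above). Beside RPL10A and RPL3 these were RPL12, RPS14, RPS21 and RPS27L, with mean differences of -0.22, -0.10, -0.21 and -0.21. At 0.5 mM they were RPL10A, RPS3 and RPS3A, and at 1 mM RPL10A alone. RPS3 and RPS3A are proteins of the small subunit. RPL12 shares 376 exonic bases with LRSAM1 on the opposite strand, and the counting used strand.

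Relative level is set against the median member, so within a line its changes run in both directions by construction. At 2 mM, 24 of the 67 genes were lower than the control of the same line in all 4 lines and 10 were higher in all 4 (13.2% and 14.7% of all genes, with the same limit). On log2 CPM itself 0 members were higher in all 4 lines, where 19.2% of all genes were. All 67 were lower in C5, so that count follows from C5 alone. Of the 10 that were higher in relative level, the largest mean differences were those of RPS12 (0.31, 0.12, 0.36 and 0.21 in C5, C7, C9 and C11), RPLP1 (mean 0.19), RPS28 (0.17) and RPL27 (0.17), and their dose and control groups overlapped.

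**Figure D5:**
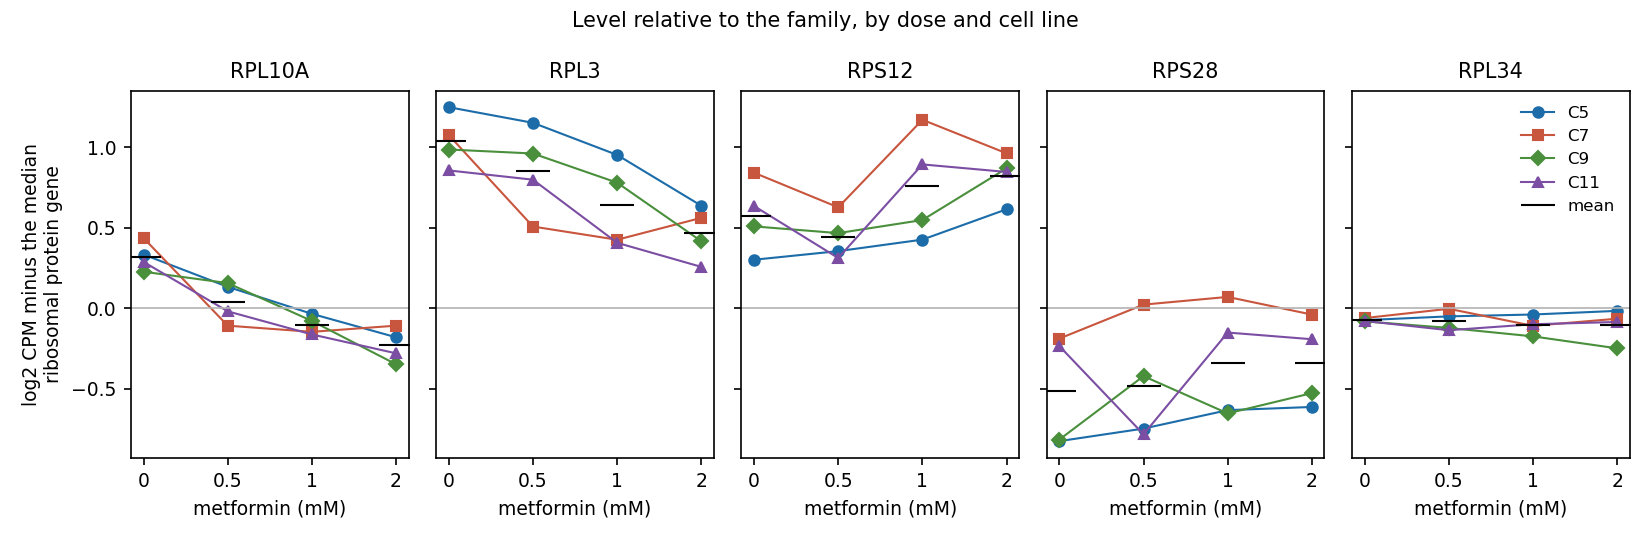
Level of 5 genes relative to the median ribosomal protein gene of the same library (log2 CPM difference), by dose and line; black bars are means of 4 lines. RPL10A goes down to -0.23 and RPL3 to 0.47 at 2 mM against 0.32 and 1.04 in the control group, RPS28 lies between -0.19 and 0.07 in C7 and no higher than -0.42 in C5 and C9, and RPL34 stays near -0.09.

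Other members chosen for their role were not called against control by edgeR, without a term for the cell line, where 0% of all genes were. RPS6, the substrate of the S6 kinases, had a log2 fold change at 2 mM of -0.23 ± 0.40 SE. For RPL5 and RPL11, which carry the 5S RNA and in mammals bind MDM2 when ribosome assembly fails, the changes were -0.11 ± 0.31 and -0.22 ± 0.45 SE. The stalk proteins RPLP0, RPLP1 and RPLP2, which recruit the translational GTPases, had -0.06, 0.09 and 0.05. RPS3 had -0.27, RPL22 0.01 and RPS27A, made as a fusion with ubiquitin, 0.04. Of the largest positive fold changes, RPS12 had 0.16, RPS28 0.10, RPLP1 0.09 and RPS20 0.08, and all of these were smaller than their SE.

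Genes that act around the ribosome were read from lists. None was called by edgeR in 19 genes of translation with TOP mRNAs, 35 of ribosome assembly or 20 of mTOR and S6 kinase signalling. The same held for 13 genes of ribosome rescue and 10 p53 targets, at any dose or for the slope. Without added terms, edgeR called 0% of all genes at each dose and 0.432% for the slope. At the doses no list could thus hold a call. At 2 mM the TOP list had 16 of 19 genes below 0 (median -0.19), and the 69 mitochondrial ribosomal proteins had 52 below 0 (median -0.18), against 49.4% of all genes. With the replicate block and the length slope, 10 of the 19 TOP genes (median -0.01) and 43 of the 69 mitochondrial genes (median -0.09) were below 0, against 48.5% of all genes.

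That fit called 684 of 13289 genes (5.15%) at 2 mM. Within lines the length slope changed mainly in C5, by 0.31, against 0.08 in C7, -0.11 in C9 and -0.01 in C11. With terms for dose, line and length slope in 8 libraries, the fit had little left from which to estimate its SEs and p-values. In the lists it called 1 of 35 assembly genes, 1 of 20 mTOR genes, 1 of 10 p53 targets, 1 of the 69 mitochondrial ribosomal proteins, and 0 of the TOP and rescue lists. These included RRP9, a protein of ribosomal RNA processing (log2 fold change -0.65 ± 0.10 SE, adjusted p = 0.0408), RHEB, the activator of mTORC1 (0.63 ± 0.12 SE, adjusted p = 0.0473), and GADD45A, a p53 target (0.65 ± 0.10 SE, adjusted p = 0.0380). Of these lists, only the p53 list, through 1 gene, had a larger share called than all genes did.

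For the slope the same fit called 16.2% of all genes. In the lists it called 1 of 19 TOP genes, 3 of 35 assembly genes, 3 of 20 mTOR genes, 2 of 13 rescue genes, 0 of 10 p53 targets, and 11 of the 69 mitochondrial ribosomal proteins (4 higher and 7 lower). None of these lists had a larger share called than all genes did, so the genes named next do not set them apart. The TOP gene was NPM1, a nucleolar chaperone (-0.25 per mM, adjusted p = 0.0279). The assembly genes were RRP9 (-0.30, adjusted p = 0.00416), RRS1, a factor of the large subunit (0.33, adjusted p = 0.00537), and POLR1C, a subunit of RNA polymerases I and III (0.23, adjusted p = 0.0131). The mTOR genes were RHEB (0.34, adjusted p = 0.00829), RPS6KB2, a kinase of RPS6 (-0.25, adjusted p = 0.0113), and EEF2K, which inhibits translation elongation (0.34, adjusted p = 0.0161). The rescue genes were PELO, which rescues stalled ribosomes (0.27, adjusted p = 0.00276), and ASCC2, which acts on collided ribosomes (-0.26, adjusted p = 0.0161). RPL22L1, the paralog of RPL22 that the naming rule left out, had a slope of -0.37 ± 0.10 SE per mM (adjusted p = 0.0255). None of these genes passed in the fit that had neither term.

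The genes whose pattern over the 16 libraries was most like the median ribosomal protein gene, by Pearson correlation of log2 CPM, were GNB2L1 (RACK1, a protein that sits on the small subunit) at 0.987, an unnamed gene at 0.986, HNRNPA1 at 0.980, NME2 at 0.980 and SUMO3 at 0.979. The 67 members with a mean of at least 1 CPM had a median of 0.973 (0.835 to 0.995), and 11868 other genes a median of -0.02. The reference is the median of the members themselves, so their high values are built in. The libraries share lines, depth and length slope, so these are descriptions.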

How the data were processed

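Single-end reads of stranded mRNA libraries were aligned by the authors to GRCg6a with HISAT2 2.1.0 and counted on exons by strand with featureCounts, with reads over several genes given to each. The authors deposited raw counts per gene and library, and an other column of exonic length. Their DESeq2 tables of fold changes were not used. All 16 libraries were analysed, and 6 members share exonic bases with a gene of the same strand.

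The members and lists were chosen with earlier results of these data known. Each dose was compared with control (8 libraries) and the slope per mM was fitted (16 libraries) with edgeR 4.0.16 in R 4.3.3: quasi-likelihood test, two-sided, TMM, filterByExpr, Benjamini-Hochberg adjustment over all genes tested, and no term for the cell line. The filter dropped RPL3L at 2 mM. DESeq2 1.42.0, RLE, library totals, other filters, the replicate block, the length slope and libraries left out were alternatives. Scaling to the median member was chosen after seeing the data. Log2 CPM used a prior count of 1, and the length slope used genes outside the family with a mean count of at least 100. Named genes were the 5 highest and 5 lowest per kb, the 4 largest fold changes at 2 mM each way, the 3 smallest slope p-values each way, the 4 most and 4 least variable relative levels, members by role, paralogs, and called members, of which 1 is not reported here. The edgeR fits without added terms and with the replicate block were run on simulated data, for 2 mM and for the slope. The simulated data held no differences between lines and no length slope. The fit with the length slope and DESeq2 were not run on simulated data.

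The libraries are paired by hen. Pairs of one line correlated in their deviations from the dose means at a median of 0.532 (24 pairs). The median was 0.668 where both length slopes had the same sign (15 pairs) and 0.039 where they differed (9 pairs). Pairs of different lines had a median of -0.146 (72 pairs), with 0.0755 at the same sign (31 pairs) and -0.309 at opposite signs (41 pairs). Pairs of one line thus had the higher median in both cases.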

Additional observations from a re-analysis of the deposited data

Results flagged for a closer look

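Dixon's criterion (gap to the nearest other over the group's range) was applied to the named members and the summed share. In 18 of 112 groups of 4 libraries, a library stood apart from the others. The cutoff would flag about 1 in 20 independent groups of normal values. These groups share libraries and were not log-transformed, so that rate is no reference here. At 2 mM the library that stood apart was always C7, at a share of 7.66% against 4.05% to 4.63% in the other lines. There it stood apart for RPLP0 (2411 CPM), RPS3 (1854), RPS6 (1756), RPS20 (1583), RPL3 (1569), RPL5 (1507), RPS10 (1498), RPL23 (1408) and RPS27A (1351), and likewise for RPL10A (986), RPL11 (986), RPL24 (771), RPL22 (667) and RPS27L (33.6 CPM). These genes move together, so the flags are not independent. At 0.5 mM, C5 stood apart for RPL23 (1345 CPM) and RPS12 (1147 CPM). In the control group, C7 stood apart for RPS27 (932 CPM). C7 also had the highest share in the control group, and the cause was not tested.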

How the results depend on the processing

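The count of members called stayed at 0 under every alternative run, except for RPS12 with the replicate block and length slope (1 member called for the slope). Without added terms or with the replicate block alone, edgeR called 0% of all genes at each dose, so the count could not differ there. For the slope these fits called 0.432% and 4.96% of all genes. With the block and the length slope, edgeR called 0%, 1.8% and 5.15% at 0.5, 1 and 2 mM, and 16.2% for the slope. The count of members with a fold change below 0 moved. At 0.5 mM it was 13 with the length slope as a covariate, 0 with the replicate block and the length slope, and 43 with libraries scaled to the median member, with or without the replicate block. That scaling sets the median member to the same level in every library, so the changes of members centre near 0 by construction. It put the median of all genes at 0.15 at 0.5 mM. At 1 mM the count of members below 0 was 15 with library totals and 23 with the replicate block. At 2 mM it was 25 with the length slope and 27 with the replicate block and length slope. For the slope it was 25 under both.

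Leaving out a line or library gave 1 to 67 members below 0 at 0.5 mM (1 without line C7), 2 to 62 at 1 mM (2 without line C7, 62 without C5 at 1 mM), 8 to 67 at 2 mM and 6 to 57 for the slope (6 without line C5, 57 without C7). The medians ranged from -0.50 to 0.17, from -0.21 to 0.32 and from -0.44 to 0.19 at the doses, and from -0.08 to 0.09 for the slope. The share differences ranged from -0.97 to 0.59, from -0.05 to 0.60 and from -0.37 to 0.32 percentage points.

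The relative change of RPL10A at 2 mM was -0.52 against the mean member and -0.51 against the median small-subunit member, and -0.56 to -0.54 with a line left out. That of RPL3 was -0.59 to -0.56 and that of RPS12 0.22 to 0.30. The cause of the differences between settings was not tested. With 4 lines per group, the mean changes of the summed share were within the spread of its level between lines, which is not the spread of paired changes.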

Other observations

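C11 at 0.5 mM differed from the other libraries of its line in several genes of the family. RPS28 had a relative level of -0.78 there, against -0.23, -0.15 and -0.19 in C11 at control, 1 and 2 mM, and RPS26 had -0.58 against -0.12, -0.21 and -0.26. The same library had 0.429 CPM of LYZ, against 69.3, 101 and 95.7 CPM in the other C11 libraries, and its summed macrophage markers were 38.4 CPM against 185, 212 and 204 CPM. The length slope of this library was above 0 and those of the other 3 were below 0. Their part in the result was not tested.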
